A study of Mus musculus with 18 samples.

Results

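The mechanical stress genes of the sarcomere examined here are 10 genes of the Z-disc and its neighbourhood. The rule names the genes and uses no measured value, though the list was drawn up with earlier results of these data known. They are the ankyrin repeat genes Ankrd1, Ankrd2 and Ankrd23, the LIM gene Csrp3, the Xin repeat genes Xirp1 and Xirp2, the calsarcins Myoz1 and Myoz2, and the alpha-actinins Actn2 and Actn3. These are 10 of the 23420 genes in the RNA-seq table, and all 10 passed the filter on low values that left 13178 genes to test. RNA-seq was made from hindlimb muscle of female C57BL/6J mice aged 2, 20 and 28 months, with 3 mice and 3 libraries per age and no pooling. No treatment or engineered allele distinguishes the ages, and the animals differ in age alone as far as the labels say. The muscle was taken as whole tissue, so a value averages over fibres of all types and over the other cells between them, and in such bulk samples fewer cells of a type and less RNA per cell cannot be told apart. DNA of the same mice, pooled by age, was used for methyl-CpG-binding domain sequencing (MBD-seq), with spleen T cells as the comparison tissue.

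The Z-disc anchors the thin filaments of neighbouring sarcomeres through alpha-actinin crosslinks and takes up the force of each contraction. Several of its proteins also respond to load: the muscle ankyrin repeat proteins bind titin and enter the nucleus, muscle LIM protein (Csrp3) is a strain-responsive Z-disc partner, the Xin proteins gather at sites of fibre damage and repair, and the calsarcins bind both alpha-actinin and the phosphatase calcineurin. In skeletal muscle some of these genes mark a fibre type. Actn3 and Myoz1 belong to fast fibres, while Myoz2, Csrp3 and Ankrd2 are known for their higher level in slow fibres.

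With age the group split. 6 of the 10 genes, Ankrd1, Ankrd2, Csrp3, Xirp1, Myoz2 and Actn2, were higher in the muscle of 20- and 28-month-old mice together than at 2 months, by 2.05-fold (Actn2) to 4.45-fold (Ankrd1). Myoz1 was lower, by 1.36-fold, and Ankrd23, Xirp2 and Actn3 did not pass the test in that comparison, though Ankrd23 (lower) passed in 6 of 13 alternative fits and Xirp2 (higher) and Actn3 (lower) in 2 of 13 each. Of the 7 called genes, Ankrd1, Ankrd2, Xirp1 and Actn2 kept the call in all 13 alternatives, Myoz1 and Myoz2 in 12 and Csrp3 in 10. Among all 13178 genes tested, 11.2% were called higher and 8.92% lower in the same comparison. The median log2 fold change was 1.08 over the 10 genes and -0.02 over all genes tested. A gene was called when its Benjamini-Hochberg adjusted p, from a limma fit over all genes tested, was under 0.05, and values are the deposited normalized counts.

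**Figure D1:**
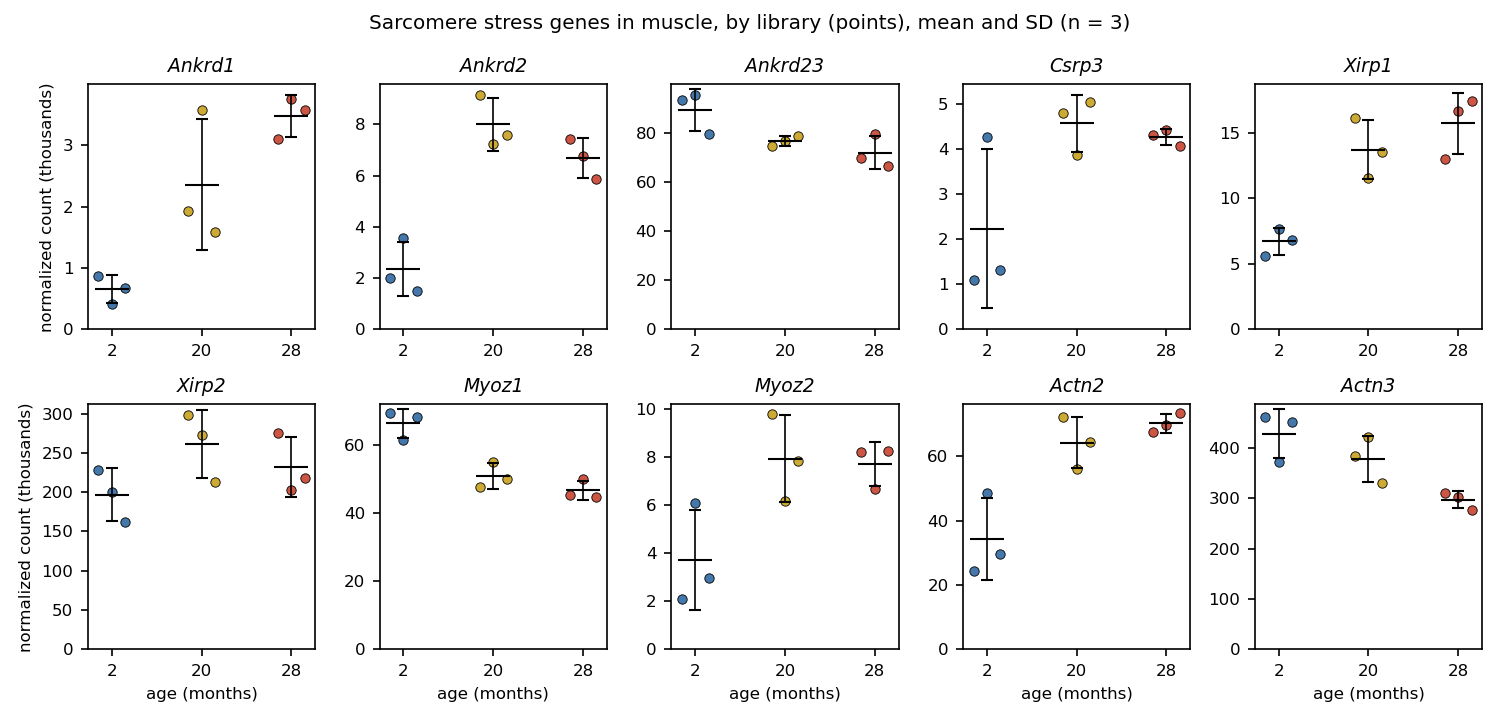
Normalized counts (axes from 0, in the unit shown) of the 10 genes in each of the 9 muscle libraries by age in months. Points are libraries, bars are the mean and SD of 3. All 6 libraries of 20 and 28 months lie above all 3 of 2 months for Ankrd1, Ankrd2, Xirp1, Myoz2 and Actn2, and below them for Ankrd23 and Myoz1.

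The genes lie on 8 chromosomes of the mouse genome (GRCm38, mm10). Ankrd1, Ankrd2 and Actn3 share chromosome 19, at 36111965 to 36119844 (minus strand), 42035917 to 42045111 (plus strand) and 4861216 to 4877909 (minus strand). Csrp3 spans 48830398 to 48848051 on chromosome 7, Myoz2 spans 123006206 to 123035003 on chromosome 3 and Actn2 spans 12269426 to 12340732 on chromosome 13, all on the minus strand. Ankrd23 spans 36530193 to 36536556 on chromosome 1, Xirp1 spans 120013755 to 120023598 on chromosome 9 and Myoz1 spans 20649102 to 20656540 on chromosome 14, also on the minus strand, and Xirp2 spans 67446000 to 67526620 on the plus strand of chromosome 2. No annotated gene overlaps 8 of the 10. Xirp2 and Actn2 each overlap 1 gene on the other strand that has no row in the count table.

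RefSeq start-site sequences of GRCm38.p6 (from 250 bases before to 50 after the start) were at hand for 7 of the 10 genes. They are shown for the 5 of these genes that were higher at both older ages, since MBD-seq was also read near these sites. The start in this table lies 110 bases inside the RefSeq gene for Ankrd2 and 16 for Myoz2, and at the gene's upstream end for the other 3. Capitals mark matches, on either strand, to the MCAT element (CATTCC), the MEF2 site and the TATA box (TATAAA).
Ankrd1, chr19:36119795-36120094, minus strand: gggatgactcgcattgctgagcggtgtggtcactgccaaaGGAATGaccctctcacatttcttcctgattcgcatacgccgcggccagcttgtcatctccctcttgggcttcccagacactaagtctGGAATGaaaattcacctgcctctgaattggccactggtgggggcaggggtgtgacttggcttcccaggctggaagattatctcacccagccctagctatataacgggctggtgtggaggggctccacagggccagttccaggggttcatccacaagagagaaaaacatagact
Ankrd2, chr19:42035777-42036076, plus strand: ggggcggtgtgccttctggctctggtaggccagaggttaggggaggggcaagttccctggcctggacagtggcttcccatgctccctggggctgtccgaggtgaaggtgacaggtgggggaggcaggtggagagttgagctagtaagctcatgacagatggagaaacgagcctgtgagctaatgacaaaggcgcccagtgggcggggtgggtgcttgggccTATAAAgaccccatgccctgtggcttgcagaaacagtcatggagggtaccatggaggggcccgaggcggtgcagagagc
Csrp3, chr7:48848002-48848301, minus strand: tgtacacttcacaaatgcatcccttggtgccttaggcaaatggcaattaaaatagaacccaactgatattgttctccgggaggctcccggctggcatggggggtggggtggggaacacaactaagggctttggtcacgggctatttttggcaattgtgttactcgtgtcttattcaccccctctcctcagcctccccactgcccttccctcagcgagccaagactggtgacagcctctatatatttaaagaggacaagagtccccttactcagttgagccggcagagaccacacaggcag
Myoz2, chr3:123034938-123035237, minus strand: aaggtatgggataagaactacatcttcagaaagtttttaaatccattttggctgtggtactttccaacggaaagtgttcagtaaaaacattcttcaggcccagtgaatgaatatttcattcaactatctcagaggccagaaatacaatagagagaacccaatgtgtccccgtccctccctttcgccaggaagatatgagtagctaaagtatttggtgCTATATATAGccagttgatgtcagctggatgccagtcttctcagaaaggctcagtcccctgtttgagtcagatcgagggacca
Actn2, chr13:12340683-12340982, minus strand: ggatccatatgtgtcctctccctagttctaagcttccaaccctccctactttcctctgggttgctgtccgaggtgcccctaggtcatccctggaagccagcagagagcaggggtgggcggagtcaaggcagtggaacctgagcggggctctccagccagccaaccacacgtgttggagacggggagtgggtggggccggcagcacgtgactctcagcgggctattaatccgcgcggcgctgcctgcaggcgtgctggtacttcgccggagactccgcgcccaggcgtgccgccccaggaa
Ankrd1 held MCAT matches at -210 to -205 and -123 to -118 from the start site, and 14.7% of all 32851 promoters in the table held at least 1. Ankrd2 held a TATA box at -29 to -24 (13.6% of promoters), and Myoz2 a MEF2 match at -33 to -24 (3.19%). Genes whose sequences are not shown also held such matches. Ankrd23 held an MCAT match at each of its start sites, at 36 to 41 and at -120 to -115. Xirp2 held a MEF2 match at -74 to -65. Neither Ankrd23 nor Xirp2 was called in the main fit. No capitalised match overlapped another. The Csrp3 and Actn2 windows held none of these letters, and a CArG box (1.63% of promoters) was found in none of the sequences of the 7 genes. E-boxes (CANNTG) were present in all 5 sequences shown, as in 72.3% of promoters.

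The 9 libraries held 20203833 to 71115244 reads on genes. A ribosomal RNA precursor, Rn45s, took 24.0 to 30.4% of these reads in the libraries numbered 1 and 2 and 8.81 to 10.4% in those numbered 3, at every age, and the calls lost without the libraries numbered 3 are given with the counts by age. The 2-month library numbered 2 stood apart from the other 2-month libraries in its slow-fibre genes. Slow myosin Myh7 had a normalized count of 2773, 44700.5 and 8400.4 in the 2-month libraries numbered 1, 2 and 3, and of 62731 to 112463 at the older ages. The tissue markers fitted the label: the muscle creatine kinase Ckm stood at 516150.0 to 732934 in all libraries. Of the 6 cardiac muscle markers 3 were at or near 0: the atrial light chain Myl7 had no read in any library, and the atrial peptide Nppa and cardiac troponin Tnni3 each reached at most 8.81. The other 3 were detected in every library, Myh6 at 114 to 398, Myl4 at 172 to 353 and Tnnt2 at 70.7 to 183. The summed list stood at 370.0 to 633 at 2 months, 658 to 750 at 20 months and 679 to 757 at 28 months.

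Among the ankyrin repeat genes, Ankrd1, which is low in resting skeletal muscle and known as a responder to stretch and injury, had normalized counts of 871, 412 and 667 at 2 months. They were 1920.4, 3579 and 1578 at 20 months, and 3097, 3758 and 3578 at 28 months. Every older library was above every 2-month library, and the 20-month library numbered 2 lay with the 28-month ones. Ankrd1 rose by a log2 fold change of 1.83 (SE 0.280) from 2 to 20 months, with an adjusted p of 0.00104, and of 2.48 (SE 0.280) from 2 to 28 months, with an adjusted p of 0.000148. From 20 to 28 months its log2 fold change was 0.65 (SE 0.280), with an unadjusted p of 0.0386 and an adjusted p of 0.443. The lowest of the 9 values rested on 234 reads.

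Ankrd2, a relative of Ankrd1 that is bound at titin's I-band and is prominent in slow fibres, counted 2010.5, 3551 and 1504 at 2 months. It counted 9165, 7223 and 7603 at 20 months and 7446, 6752 and 5887 at 28 months. The 2-month library numbered 2 was the highest of its age and still below all 6 older libraries. The log2 fold change was 1.85 (SE 0.229) at 20 against 2 months, with an adjusted p of 0.000237. At 28 months the log2 fold change against 2 months was 1.59 (SE 0.229), with an adjusted p of 0.000671.

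Ankrd23, the third titin-binding ankyrin repeat gene, was the most abundant of the 3 per length and was not called in any comparison. Its normalized counts were 93201, 95364 and 79470.0 at 2 months, 74534, 76531 and 78629 at 20 months, and 69787, 79318 and 66325 at 28 months. The 2-month library numbered 3 was barely above the highest older library, the 28-month one numbered 2. The log2 fold change was -0.22 (SE 0.107) at 20 months and -0.31 (SE 0.107) at 28 months against 2 months, with adjusted p of 0.183 and 0.0699, so neither was called. The 28-month difference of Ankrd23 passed in 4 of 14 alternatives, among them the replicate number as a block (adjusted p of 0.0300) and DESeq2 (adjusted p of 0.0125), and the 20-month one passed with quantile normalization (adjusted p of 0.0173). For both older ages together 6 of 13 alternatives called Ankrd23 lower, with adjusted p from 0.00601 (quantile normalization) to 0.0498 (a mean of at least 50).

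Csrp3 encodes muscle LIM protein, which binds alpha-actinin and telethonin at the Z-disc. Its counts at 2 months, 1103, 4269.7 and 1327, differed by 3.87-fold between the highest and the lowest library. They were 4803, 3869 and 5063 at 20 months and 4321, 4428 and 4080.4 at 28 months. The 2-month library numbered 2 lay among the older libraries, while the other 2-month libraries lay far below. The log2 fold change was 1.30 (SE 0.356) at 20 months and 1.21 (SE 0.356) at 28 months against 2 months, with adjusted p of 0.0260 and 0.0399. These calls were weak: edgeR's quasi-likelihood test gave adjusted p of 0.0720 and 0.114, and DESeq2 gave 0.141 and 0.218. Leaving out 1 library at a time kept the 20-month call in 3 of 9 fits and the 28-month call in 1 of 9. For both older ages together the call was lost in 3 of 13 alternatives, with edgeR (adjusted p of 0.0506), with DESeq2 (adjusted p of 0.0915) and with the libraries numbered 3 left out. It was also lost without the 2-month library numbered 1 (adjusted p of 0.0776) and without the 2-month library numbered 3 (adjusted p of 0.0597). Without the 2-month library numbered 2, the log2 fold change of both older ages against 2 months was 1.86 in place of 1.26, with an adjusted p of 2.44e-07.

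The Xin genes encode actin-binding repeat proteins of the cell junctions and of damaged or remodelling sarcomeres. Xirp1 counted 5628, 7681 and 6848 at 2 months, 16097, 11558 and 13498 at 20 months, and 13029, 16650.1 and 17439 at 28 months. The lowest older library was above the highest 2-month library, and the 2-month libraries lay close together. Its log2 fold change against 2 months was 1.03 (SE 0.144) at 20 months, with an adjusted p of 0.000578, and 1.23 (SE 0.144) at 28 months, with an adjusted p of 0.000178. Xirp2, the larger Xin gene, counted 228694, 200124 and 162439 at 2 months, 298310.0, 272613 and 213323 at 20 months, and 275169, 202736 and 218692 at 28 months. Its ranges overlapped in every comparison, and the library numbered 3 was the lowest at 2 and at 20 months. The log2 fold changes of Xirp2 against 2 months, 0.41 (SE 0.177) at 20 months and 0.24 (SE 0.177) at 28 months, were not called, with adjusted p of 0.137 and 0.415. At 20 against 2 months Xirp2 passed with the replicate number as a block (adjusted p of 0.0278) and by DESeq2 (adjusted p of 0.0406). For both older ages together Xirp2 passed with quantile normalization (adjusted p of 0.0235) and with the block (adjusted p of 0.0364).

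The calsarcins moved in opposite directions. Myoz1, calsarcin-2 of fast fibres, counted 69459, 61598 and 68426 at 2 months, 47688, 55176 and 50055 at 20 months, and 45370.1, 50098 and 44798 at 28 months. All older libraries lay below all 2-month libraries. Myoz1 had a log2 fold change of -0.38 (SE 0.0954) at 20 months, with an adjusted p of 0.0167, and of -0.51 (SE 0.0954) at 28 months, with an adjusted p of 0.00418, both against 2 months. Myoz2, calsarcin-1 of slow fibres and heart, counted 2099.6, 6071 and 2961 at 2 months. It counted 9783, 6172 and 7843 at 20 months and 8220.5, 6662 and 8265 at 28 months. The 2-month library numbered 2 was barely below the lowest 20-month library, so the age groups were apart by a narrow gap. Myoz2 rose by 1.22 (SE 0.288) at 20 months and by 1.19 (SE 0.288) at 28 months on the log2 scale, with adjusted p of 0.0133 and 0.0162. Leaving out 1 library at a time kept the Myoz2 call in 8 of 9 fits at 20 months and 6 of 9 at 28 months, and DESeq2 did not call it at 28 months (adjusted p of 0.0638). The Myoz1 call was kept in 7 of 9 such fits at 20 months and 9 of 9 at 28 months.

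The alpha-actinins also parted. Actn2, an alpha-actinin of skeletal muscle and of the heart, counted 24446, 48526 and 29502 at 2 months, 72061, 56120.5 and 64355 at 20 months, and 67578, 69572 and 73546 at 28 months. Again the 2-month library numbered 2 was the highest of its age, and the ranges did not overlap. Actn2 rose by 0.96 (SE 0.193) at 20 months and by 1.10 (SE 0.193) at 28 months on the log2 scale, with adjusted p of 0.00546 and 0.00272. Actn3, the crosslinker of fast glycolytic fibres, counted 462275, 373243 and 451391 at 2 months, 385409, 421697 and 331018 at 20 months, and 310934, 303723 and 278006 at 28 months. The 2- and 20-month ranges overlapped, and every 28-month library was below every library of the other ages. At 28 against 20 months, 1165 of all 13178 genes tested lay apart lower in the same way, and 1137 apart higher. At 20 against 2 months the log2 fold change of Actn3 was -0.18 (SE 0.156), with an adjusted p of 0.469. At 28 against 2 months it was -0.52 (SE 0.156), with an adjusted p of 0.0425, and 5 of 14 alternatives lost this call. They were the fit of only the groups compared (adjusted p of 0.0667), no filter on low values (0.215), an equal sum for all libraries (0.386), the libraries numbered 3 left out (0.214) and quantile normalization (log2 fold change of -0.17, adjusted p of 0.561). Leaving out 1 library at a time kept the Actn3 call in 2 of 9 fits. For both older ages together Actn3 was called lower by edgeR (adjusted p of 0.0276) and DESeq2 (adjusted p of 0.00285), and by limma without the 2-month library numbered 2 (adjusted p of 0.0445).

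**Figure D2:**
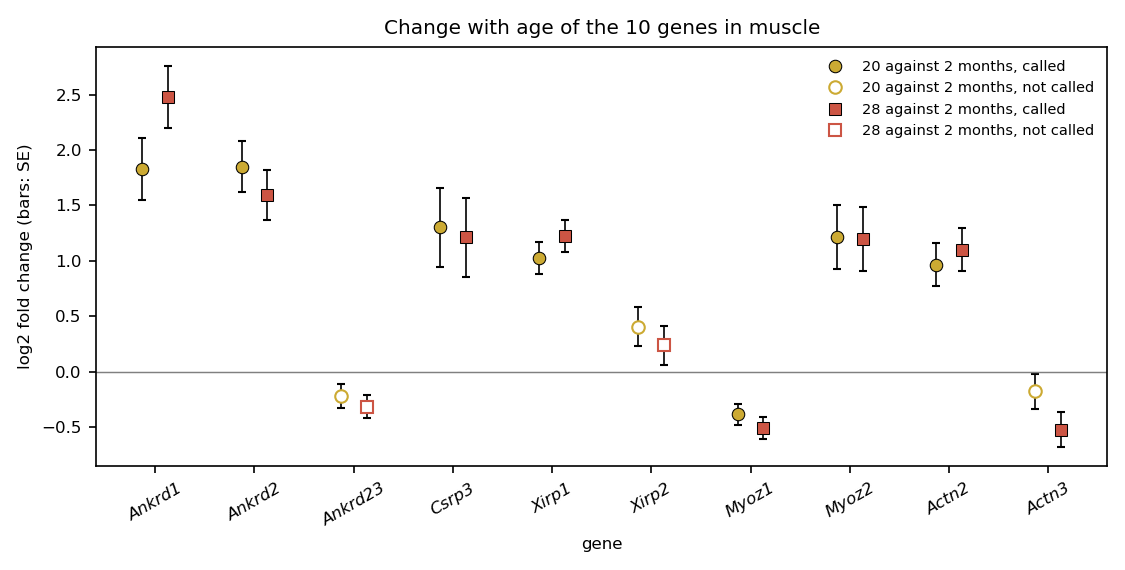
Log2 fold changes of the 10 genes at 20 months (circles) and 28 months (squares) against 2 months, with bars of 1 SE from the limma fit. Filled symbols passed an adjusted p of 0.05, and Ankrd1 reaches 2.48 at 28 months while Myoz1 and Actn3 reach -0.51 and -0.52.

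By age, 7 of the 10 genes were called at 20 against 2 months, 6 higher and 1 lower, where 9.42% of all genes tested were called higher and 7.13% lower. At 28 against 2 months 8 were called, 6 higher and 2 lower, against 7.53 and 6.24% of all genes. Both comparisons share the 2-month libraries. Between 20 and 28 months limma called 0 of the 10, as did edgeR and DESeq2, and 2 (Ankrd1 and Actn3) had an unadjusted p under 0.05. Only 0.212% of all genes were called higher and 0.167% lower there. In the comparison of both older ages with 2 months, all 6 older libraries lay above all 3 younger ones for 5 genes (10.5% of all genes tested) and below them for 2 genes (9.6%). Two-sided exact permutation tests of single genes gave the smallest p that the design allows, 0.1 for 3 against 3 libraries, for 7 genes at 20 and 8 genes at 28 against 2 months, those whose libraries did not overlap. Of all genes tested, 18.4% lay apart higher and 17.6% lower at 20 months, and 15.3% and 15% at 28 months. With 3 against 6 libraries the smallest p, 0.0238, was reached by 7 genes.

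Some of these counts rested on single libraries or on the scaling. Leaving out the 3 libraries numbered 3 left 3 genes called at 20 months and 3 at 28 months against 2 months, and 5 in the comparison of both older ages with 2 months, where Csrp3 (adjusted p of 0.133) and Myoz2 (adjusted p of 0.0712) were lost. The genes lost at 20 months were Csrp3 (log2 fold change of 0.99, adjusted p of 0.196), Myoz1 (-0.35, 0.102), Myoz2 (1.12, 0.104) and Actn2 (0.88, 0.0639). Those lost at 28 months were Csrp3 (1.01, 0.239), Myoz1 (-0.46, 0.0615), Myoz2 (1.05, 0.163), Actn2 (0.99, 0.0572) and Actn3 (-0.43, 0.214). Over all 13178 genes the counts called also fell without these libraries, from 2181 to 1099 at 20 months, from 1814 to 712 at 28 months and from 2649 to 1327 for both ages together. Without the 20-month library numbered 1, 4 genes were called at 20 months. Without the 2-month library numbered 1, the 28-month library numbered 1 or the 28-month library numbered 3, 5 were called at 28 months. Without the 2-month library numbered 2, 7 and 8 were called at 20 and 28 months, and 8 for both ages together. After all libraries were given an equal sum, 6 genes were higher and 0 lower in each of the 3 comparisons with 2 months, Myoz1 then having an adjusted p of 0.193 for both ages together. With quantile normalization, 6 were higher and 2 lower at 20 months.

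Levels can be compared between genes only per length, here as normalized count per kb of the longest GENCODE transcript. At 2 months Actn3 had the highest level per kb, 148587 ± 16822 (SD, n = 3), followed by Myoz1 with 51586 ± 3314 and Ankrd23 with 39238 ± 3786. The libraries of these 3 did not overlap. Xirp2 (16453 ± 2774) and Actn2 (11337 ± 4214) came next and overlapped. Ankrd2 (2069 ± 937), Myoz2 (1538 ± 866), Xirp1 (1151 ± 177) and Csrp3 (918 ± 726) followed, each overlapping with its neighbour in this order. Ankrd1 was last with 322 ± 114, and its libraries did not overlap with those of Csrp3. At 28 months Actn3 was still first with 103067 ± 5995, but Myoz1 (36273 ± 2257) overlapped with Ankrd23 (31537 ± 2955), and Actn2 (23309.7 ± 1008) had moved ahead of Xirp2 (19384 ± 3177) with overlapping libraries. Ankrd1, at 1722 ± 169, then overlapped with Csrp3, at 1758 ± 73.1.

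Within the pairs of related genes the balance differed by age. Of the summed Actn2 and Actn3 level per kb, Actn2 made up 4.82, 11.1 and 5.89% in the 3 libraries of 2 months and 11.3 to 20.2% in the 6 older ones. The highest 2-month share and the lowest older share, both from libraries numbered 2, were nearly equal. Of the calsarcin level per kb, Myoz2 made up 1.59 to 5.003% at 2 months and 5.64 to 9.88% later. Of the summed level per kb of Ankrd2 and Ankrd23, Ankrd2 made up 3.65 to 6.93% at 2 months and 14.6 to 19.7% later, a wider gap.

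The slow-fibre genes moved with several of the 10. All 9 genes of the slow-fibre list were called higher at the older ages, with a median log2 fold change of 2.61, and 5 of 10 fast-fibre genes were called lower and 0 higher, with a median of -0.35. Myh7, slow myosin heavy chain, had the largest difference of the slow list, a log2 fold change of 3.18 (SE 0.587) with an adjusted p of 0.00264, and the slow troponins Tnni1, Tnnt1 and Tnnc1 followed with 2.78, 2.74 and 2.70. The fast-fibre calcium buffer Pvalb was lower by a log2 fold change of -0.94 (SE 0.124). Summed over the slow list, the 2-month libraries stood at 14635, 119458 and 30115 in the order of their numbers and the older ones at 166726 to 294426. The 2-month library with the highest slow-fibre sum was thus also the one with the highest Csrp3, Ankrd2, Myoz2 and Actn2. It had the highest Xirp1 (7681) and Ankrd23 (95364) of its age as well, and the lowest Ankrd1, Myoz1 and Actn3. Ankrd23 was not called, and its older libraries lay below those of 2 months.

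**Figure D3:**
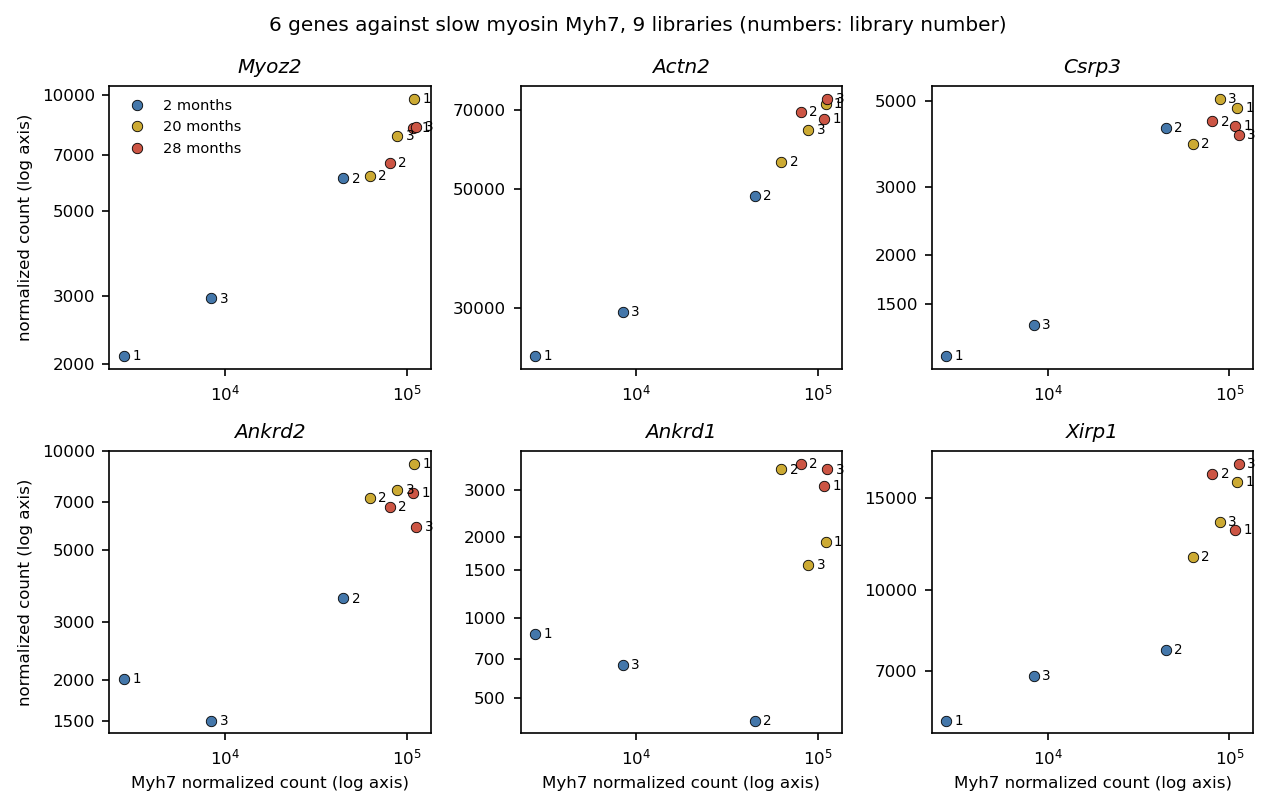
Normalized counts of 6 genes against the slow myosin Myh7 in the 9 libraries, both axes on a log scale, coloured by age and marked with the library number. The 2-month library numbered 2, at a Myh7 count of 44700.5, sits nearest the older libraries for Myoz2, Actn2, Csrp3, Ankrd2 and Xirp1, but is the lowest of all libraries for Ankrd1.

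Among the 6 older libraries alone, Pearson's r with Myh7 on the log2 scale was 0.90 for Myoz2, 0.86 for Actn2 and -0.96 for Myoz1. It was 0.59 for Xirp1, 0.35 for Csrp3, 0.11 for Xirp2, 0.08 for Ankrd2, -0.26 for Ankrd1, -0.55 for Actn3 and -0.67 for Ankrd23 (n = 6 libraries that share their normalization, given as a description). Over all 9 libraries, which also hold the age difference, r of Ankrd1 with Myh7 was 0.62. At 2 months Ankrd1 was lowest, at 412, in the library with the highest Myh7. The part of the slow-fibre difference in the differences of the 10 genes was not tested. Without the 2-month library numbered 2 the log2 fold changes of both older ages against 2 months were 2.07 for Ankrd2, 1.63 for Myoz2 and 1.32 for Actn2, in place of 1.72, 1.21 and 1.03, and 1.86 for Ankrd1 in place of 2.15.

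The genes whose values ran most like each member over the 9 libraries were also read, by Pearson's r on the log2 scale. The libraries fall by age, so these r values hold the age difference and are descriptions. Ankrd1 was most like Cacng1 (0.97), a subunit of the muscle calcium channel, and Psmb1 (0.97), a proteasome subunit. Ankrd2 ran with Nrap (0.99), an actin-binding protein of myofibril assembly, and with Pcnt (0.99). Xirp1 ran with Mroh1 (0.99) and with Bag3 (0.98), the co-chaperone that clears damaged filamin at the Z-disc. Csrp3, Myoz2 and Actn2 each had a slow-fibre gene among their closest 2: Tnnc1 (0.99) for Csrp3 beside Cdan1, Myl3 (0.99) for Myoz2 beside Pla2g12a, and Myl2 (0.99) for Actn2 beside Kremen1. Myoz1 was most like Rtn2 (0.99) and Pvalb (0.98), and Actn3 was most like Rxra (0.98) and Gid4 (0.97). Ankrd23 was most like Cd38 (0.97) and Mcee (0.97), and Xirp2 was most like Aff4 (0.99) and Marf1 (0.97).

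Partner genes of the same structures were read from 4 lists of 81 genes in all, all of them tested. At both older ages together against 2 months, 33 were called higher, 7 lower and 41 not called, with a median log2 fold change of 0.24. At 20 and at 28 against 2 months, 36 and 33 of the 81 were called. Of the 28 Z-disc partners 14 were higher and 2 lower. Among those called, the largest differences were those of Fhl2 (log2 fold change of 1.81, SE 0.209), a LIM protein that binds titin, of the small heat shock protein Hspb7 (1.52, SE 0.175), of Fhl1 (1.16, SE 0.252), a LIM protein of the sarcomere, and of the Z-disc filamin Flnc (0.97, SE 0.0983). Fhl1 shared the pattern of Csrp3, with 67908 in the 2-month library numbered 2 against 24796 and 24477 in the others and 70217 to 85236 later. Flnc did not, with 26474 to 36656 at 2 months and 57484 to 61329 at the older ages. The called lower were Palld (-0.52) and Pdlim7 (-0.47), both actin-bundle adaptors and named after their values were seen.

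Of the 22 titin, M-band and thin-filament partners 10 were higher and 1 lower (Lmod3, -0.34, named after its value was seen). Among those called, Myom3, an M-band crosslinker, had the largest log2 fold change (1.94, SE 0.185), followed by the thin-filament elongation factor Lmod2 (1.38, SE 0.206), the stretch-responsive Smpx (0.59, SE 0.0712) and the ubiquitin ligase Trim63 (0.56, SE 0.140), which binds titin's M-band end. Titin itself was not called (Ttn, 0.63, SE 0.328, adjusted p of 0.194). The only partner gene called between 20 and 28 months was Obsl1, an obscurin relative (0.42), also named after its value was seen.

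Of the 11 calcineurin pathway genes 4 were higher and 2 lower. Those with the largest differences were the transcription factors Nfatc2 (log2 fold change of 0.87, SE 0.148) and Nfatc4 (-0.65, SE 0.202) and the calcineurin inhibitors Rcan1 (0.62, SE 0.116) and Rcan2 (0.49, SE 0.131). Of the 20 genes of stretch-responsive transcription 5 were higher and 2 lower, with a median of 0.12, where 11.2% of all genes tested were higher and 8.92% lower. The lower were cardiac actin Actc1 (-3.29, SE 0.346) and the SRF cofactor Mkl1 (-0.73, SE 0.139), and the higher included Tead4 (0.85, SE 0.190), which binds MCAT elements, and Mef2a (0.67, SE 0.109). Actc1 stood at 11648 to 59450.2 at 2 months and at 1625 to 5315 later. After all libraries were given an equal sum, 23 of the 81 partner genes were called in place of 40.

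**Figure D4:**
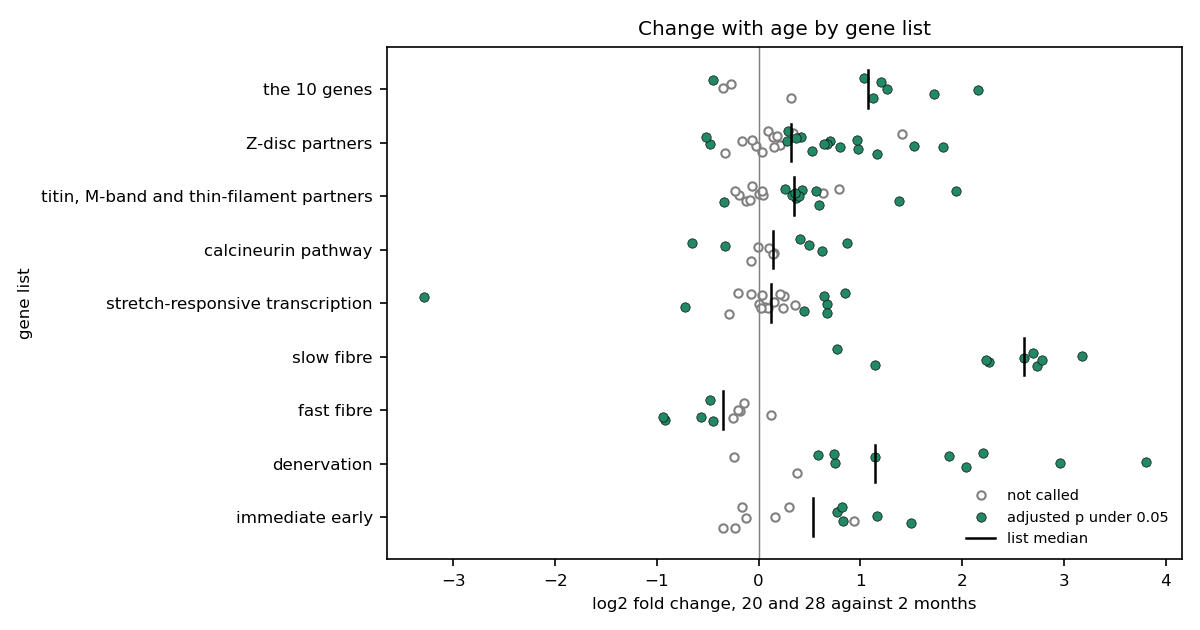
Log2 fold changes at 20 and 28 against 2 months of the 10 genes, of the 4 partner lists and of the slow-fibre, fast-fibre, denervation and immediate-early lists. Each point is a gene, filled where its adjusted p was under 0.05, and bars are list medians, which run from -0.35 (fast fibre) to 2.61 (slow fibre).

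Other gene lists also differed between both older ages together and 2 months. Of the 11 genes listed as known to rise in denervated muscle 9 were higher and 0 lower, among them the fetal acetylcholine receptor subunit Chrng (log2 fold change of 2.96, SE 0.743), embryonic myosin Myh3 (2.20, SE 0.111) and Runx1 (2.04, SE 0.253). Of the 12 immediate-early genes 5 were higher and 0 lower, led by Fos (1.49, SE 0.121) and Atf3 (1.16, SE 0.218), with Egr1 (0.83, SE 0.162) and Ier3 (0.82, SE 0.153). Between 20 and 28 months 2 of the 11 denervation genes were called higher, Myog (1.26, SE 0.242) and Gadd45a (1.33, SE 0.124), and 1 of the 12 immediate-early genes lower, Nr4a1 (-0.75, SE 0.0938), all named after their values were seen. Markers of other cells also differed from 2 months: 3 of 5 fibroblast markers were lower, Col1a1 (-3.42, SE 0.256), Col1a2 (-3.10, SE 0.251) and Col3a1 (-2.41, SE 0.135), and the summed fibroblast markers stood at 50145.5 to 104713 at 2 months and 20862 to 28378 later. 4 of 6 adipocyte markers were lower (Cfd by -2.03, Cidec by -1.50, Plin1 by -1.32 and Fabp4 by -0.37 on the log2 scale), with sums of 7234 to 11015 against 4704 to 6887. Of the remaining marker lists, 0 of 4 smooth muscle, 0 of 4 endothelial, 0 of 5 tested macrophage and 0 of 1 tested red blood cell markers were called, and none of the 4 T-cell markers reached the filter. 1 of 2 satellite cell markers (Pax7, -1.29), 1 of 3 tendon markers (Tnmd, -1.70) and 1 of 6 skeletal muscle markers (Eno3, -0.42) were lower, and 1 of 3 tested cardiac markers (Myh6, 0.86) was higher. The part of these other cells in the results for the 10 genes was not tested.

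MBD-seq gave a separate readout of the 10 loci, with 1 table column per tissue and age, so no test between ages was possible. It captures fragments with methylated CpGs, and its values here are mean normalized counts of the 500-bp bins from 1 kb before to 1 kb after the upstream end of each RefSeq gene, taken here as its start site. At 2 months the 10 windows in muscle ran from 0.910 (Actn3) to 39.1 (Xirp1), with a median of 15.4, where the median of 12277 tested genes was 7.46. The start sites with the most CpGs in the window, Actn3 with 65 and Actn2 with 57, had the lowest muscle values, 0.910 and 4.18 at 2 months. Xirp2, with 12 CpGs, the fewest, followed at 8.19.

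In T cells 9 of the 10 windows had the higher value at 2 months, as had 60.3% of all genes, with a median of 30.9, where the median of all genes was 8.93. Myoz1 stood at 61.7 in T cells and 20.7 in muscle, Ankrd2 at 43.9 and 12.0, and Ankrd1 at 49.5 and 23.8, while Actn2 stood at 1.42 and 4.18. With every column rescaled to the same sum, T cells had the higher value at 5 of the 10 windows in place of 9 and at 26.5% of all genes. Ankrd1, Ankrd2, Csrp3, Myoz1 and Actn3 kept the higher T-cell value, Csrp3 barely (13.3 against 13.1), and Ankrd23, Xirp1, Xirp2 and Myoz2 turned to the higher value in muscle.

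With age the muscle windows did not move one way: 6 of 10 were higher and 4 lower at 28 than at 2 months, where 63.3% of all 12277 genes were higher and 36.7% lower. The all-gene median was 7.46, 7.24 and 9.56 at 2, 20 and 28 months, and the all-gene mean was 11.2, 10.3 and 10.8. Ankrd1, whose RNA differed most, stood at 23.8, 26.9 and 24.1 at 2, 20 and 28 months in muscle. Ankrd2 stood at 12.0, 12.3 and 17.0, Csrp3 at 9.46, 9.60 and 17.2, Myoz2 at 18.7, 20.0 and 21.2, and Actn2 at 4.18, 2.19 and 3.70. Of the 6 genes called higher in RNA at the older ages, 4 had a higher 28-month than 2-month MBD-seq value, that of Ankrd1 barely so. Actn2 and Xirp1 had a lower one. Xirp1 went from 39.1 to 21.8, and Myoz1, with less RNA at the older ages, from 20.7 to 12.0. In windows from 2.5 kb before to 2.5 kb after the start, 3 of the 10 were higher at 28 months in place of 6, and 47.9% of all genes. With every column at the same sum, 8 of the 10 and 82.7% of all genes were higher.

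**Figure D5:**
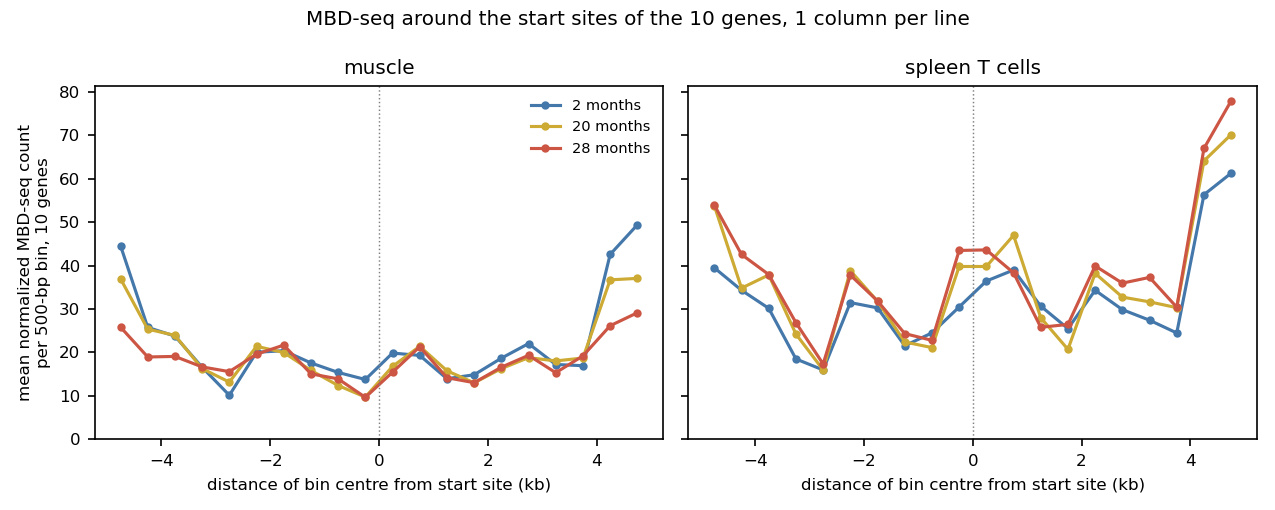
Mean normalized MBD-seq count per 500-bp bin over the 10 genes by the distance of the bin's centre from the start site (kb, negative before the start), in muscle and in spleen T cells. Each line is 1 column of an age, without replicates. The muscle lines of the bin just before the start lie at 13.7, 9.68 and 9.62 at 2, 20 and 28 months, and the T-cell lines at 30.5, 39.8 and 43.5.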

How the data were processed

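RNA-seq of hindlimb muscle (9 libraries) and MBD-seq of muscle and spleen T cells (6 columns) were read from 2 deposited tables. The authors trimmed reads with Trim Galore, aligned them to mm10 (MBD-seq with Bowtie2, RNA-seq with Hisat2 per the methods, while the submitters' notes list TopHat), counted them per refSeq gene with HTSeq or per 500-bp bin with bedtools, and divided each library's counts by 1 DESeq2 size factor. The deposited signal values are thus normalized counts. All nonzero values (100%) were whole multiples of 1 step per library within 0.01 read, so the reads were recovered. The 5 rows that name no gene held 37.9 to 47.7% of RNA-seq reads and were left out. The 2 capture rounds of muscle could not be assigned to columns.

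The main fit was limma 3.58.1 (limma-trend, R 4.3.3) on log2(normalized count + 1) with age alone, over 13178 genes with a mean of at least 10, and Benjamini-Hochberg adjustment over these genes. A fold change is on that scale. Replicates were separate mice, and every pair of libraries of 1 age differed by more than sampling noise (chi-square of 9.77 to 481 per degree of freedom). Across ages, the deviations of libraries of the same number had r of -0.04 to 0.16 over genes, and only those numbered 3 were all above 0.1. The numbers 1 and 2 thus did not pair libraries, while the libraries numbered 3 shared part of their deviations. The alternatives changed the pseudocount (to 0.1 or 5), the filter (none, or a mean of 50), the scaling (equal sums, quantile, TMM), the terms (a replicate block, or the libraries numbered 3 as a term or omitted), the samples (the groups compared, or each library left out) and the test, with edgeR 4.0.16 or DESeq2 1.42.0 run on the recovered reads. Rescaling without Rn45s was chosen after seeing the data. The fit was tested on simulated data.

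The members and gene lists were chosen with earlier results of these data known. Named genes were all members, per list up to 4 called genes of largest absolute log2 fold change (or the 2 of highest level), and per member the 2 most correlated genes. Some genes that this rule would name are not reported here. Gene positions are RefSeq GRCm38.p6, lengths the longest GENCODE vM21 transcript. For MBD-seq a start site is the upstream end of the RefSeq gene, while printed sequences and motif positions use the start of the RefSeq promoter table. Windows held 4 or 5 bins. The recovered MBD-seq counts of a column summed to 135254786 to 200456498 over the 500-bp bins. A read may be counted in neighbouring bins, so these sums are not numbers of reads. Precision is limited by 3 mice per age, and MBD-seq has 1 pool per column.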

Additional observations from a re-analysis of the deposited data

How the results depend on the processing

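Of 550 member values under alternatives that did not leave out a single library, 500 kept their direction and their side of the threshold, 28 lost and 17 gained a call, and 5 changed direction. Direction changed at 28 against 20 months alone, where no member was called: Myoz2 had log2 fold changes of 0.0019 (same sum), 0.0617 (quantile normalization) and 0.0595 (same sum without Rn45s), Xirp2 of 0.00999 (quantile normalization) and Csrp3 of 0.0210 (libraries numbered 3 left out). With 1 library left out, Myoz2 ran from -0.190 to 0.142 there, above 0 without the 20-month library numbered 1 or the 28-month library numbered 2. Members called fell from 7 to 3 at 20 and from 8 to 3 at 28 against 2 months with the libraries numbered 3 left out. Leaving out 1 library gave 4 to 7 members at 20 months, 5 to 8 at 28 months and 6 to 8 for both ages.

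Partner genes called at 20, at 28 and at both ages against 2 months were 15, 17 and 23 with rescaling to the same sum (36, 33 and 40 in the main analysis), and 22 and 15 at 20 and 28 months with the libraries numbered 3 left out. Leaving out 1 library gave 22 to 38, 20 to 35 and 36 to 42. At 28 against 20 months the count of 1 became 2 (quantile normalization, a term for libraries numbered 3, only the groups compared, no Rn45s), 4 (DESeq2), 0 (libraries numbered 3 left out), and 0 to 2 with 1 library left out. All genes called at 20 against 2 months ran from 586 (same sum) to 3000 (replicate block) around 2181, at 28 against 2 months from 554 to 2529 around 1814, at both ages from 796 to 3370 around 2649, and at 28 against 20 months from 11 to 228 around 50.

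With the replicate number as a block, 8, 9, 0 and 9 members were called at 20 and 28 against 2 months, 28 against 20 months and both ages, and 46, 44, 4 and 49 partner genes. The numbers 1 and 2 do not pair the libraries, but those numbered 3 had r of 0.109 to 0.161 across ages and a lower share of Rn45s. The main fit has no term for this, and the block fits are given as alternatives. Of the 10 start-site windows, 5 in place of 9 were higher in T cells with columns rescaled to the same sum, and 3 in place of 6 were higher at 28 months in muscle within 2.5 kb. The cause was not tested for any of these changes.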
